A study of Homo sapiens with 12 samples.

Results

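The metallothioneins MT1E, MT1F, MT1G, MT1X and MT2A, the zinc transporters SLC30A1, SLC30A8, SLC39A10 and SLC39A14, and the zinc-sensing transcription factor MTF1 were examined in senescent and non-senescent human beta-like cells. These 10 genes, of 35337 in the table, were selected on measured values, namely their levels in these senescent and non-senescent libraries. Their senescence responses are therefore described below without a test. RNA was measured by CEL-seq2, which reads the 3′ end of transcripts, in EndoC-βH3 cells, a human line made from a fetal pancreas whose division is kept up by 2 transgenes, hTERT and the SV40 large T antigen. All 12 libraries came from this line. The 6 senescent libraries came from cells treated for 3 weeks with 4-hydroxytamoxifen (4-OHT), which activates the CreER recombinase that the cells carry and cuts out those transgenes. The 6 non-senescent libraries came from control cells in which this was not done. Batch A held 2 libraries per group and batch B held 4. The effects of 4-OHT, of the loss of the transgenes and of senescence itself cannot be told apart in this design, and nothing states that replicates came from separate cultures, so the spread between them may be technical.

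Metallothioneins are small cysteine-rich proteins that bind zinc and copper and buffer their free levels. MTF1 is activated by free zinc and binds short metal response elements in the promoters of metallothionein genes and of SLC30A1, which exports zinc across the plasma membrane. Transporters of the SLC30A family move zinc out of the cytosol, either out of the cell or into organelles, and those of the SLC39A family move it into the cytosol. Beta cells hold much zinc, because insulin is stored as zinc crystals in granules that SLC30A8 (ZnT8) fills with zinc. SLC39A14 also carries iron and manganese.

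Batch A libraries held 8873569 to 17106776 reads and batch B libraries 4672924 to 7063264. All 10 beta cell markers, insulin (INS) among them, had reads in every library. Of 14 markers of other cell types 7 had reads in every library, and PPY, GHRL, CFTR, SOX9, PRSS1, CELA3A and COL3A1 had 0 reads in at least 1. The delta cell hormone gene SST ranged from 114932 to 287479 normalised reads over the 12 libraries, so these cells also carried a high SST signal in both groups. Without SST, the summed level of the other markers ranged from 2771 to 5971 normalised reads in non-senescent and from 769 to 3420 in senescent libraries. Of 8 such markers tested, limma called 4 lower in senescent cells: SST, the alpha cell hormone gene GCG, the ductal marker KRT19 and the leukocyte marker PTPRC, with log2 fold changes of -0.64, -1.30, -1.35 and -1.58. It called 1 higher, the acinar marker CPA1, whose mean went from 43.6 to 211 normalised reads (2.25 ± 0.13 on the log2 scale, SE). SST fell under the fold limit without any of the 4 batch A libraries (-0.56 to -0.58 without 1 of them). Of 9 beta cell markers other than SLC30A8, limma called 5 higher: the transcription factors MAFA (2.36 ± 0.25) and PDX1 (0.59 ± 0.07, at the fold limit, and under it in 10 of 24 alternatives), and INS, IAPP and G6PC2, which are given with the granule genes. None of the 9 was called lower. NKX6-1 (-0.37 ± 0.11, limma, adjusted p = 0.0137) and NEUROD1 (-0.22 ± 0.06, adjusted p = 0.00769) were lower and missed only the fold limit. So did ISL1, which was higher (0.34 ± 0.07, adjusted p = 0.000788). NKX6-1 had 0.11 ± 0.12 for batch A and -0.61 ± 0.09 for batch B, and these differed (limma, adjusted p = 0.0174). The part of such markers in the values below was not tested. In bulk RNA, fewer cells of a type and less RNA per cell cannot be told apart.

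The promoters of members are shown first, because a metal response element is the feature that MTF1 reads. Of the 10 genes, 5 had an entry in the RefSeq promoter table (GRCh38.p14): MT1X, MT2A, MTF1, SLC30A1 and SLC39A10. MT1E, MT1F, MT1G, SLC30A8 and SLC39A14 had none. The 250 bases before each start were searched on both strands for the element's core, TGCACNC or TGCGCNC. The 3 promoters below belong to the genes with a large rise in senescent libraries. They are written 5′ to 3′ on the strand of the gene, end at the base before the start, and carry the core matches of either strand in capitals.

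MT2A: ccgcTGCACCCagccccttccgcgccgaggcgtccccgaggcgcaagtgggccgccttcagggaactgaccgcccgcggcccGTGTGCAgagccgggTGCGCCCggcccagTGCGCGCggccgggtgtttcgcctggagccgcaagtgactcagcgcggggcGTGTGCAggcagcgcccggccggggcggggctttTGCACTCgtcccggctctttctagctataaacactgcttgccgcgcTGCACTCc

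MT1X: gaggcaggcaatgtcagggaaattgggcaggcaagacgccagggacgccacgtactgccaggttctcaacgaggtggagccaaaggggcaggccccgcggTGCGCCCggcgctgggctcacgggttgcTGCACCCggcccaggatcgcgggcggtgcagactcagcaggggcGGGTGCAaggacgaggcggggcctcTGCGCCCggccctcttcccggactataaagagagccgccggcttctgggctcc

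SLC30A1: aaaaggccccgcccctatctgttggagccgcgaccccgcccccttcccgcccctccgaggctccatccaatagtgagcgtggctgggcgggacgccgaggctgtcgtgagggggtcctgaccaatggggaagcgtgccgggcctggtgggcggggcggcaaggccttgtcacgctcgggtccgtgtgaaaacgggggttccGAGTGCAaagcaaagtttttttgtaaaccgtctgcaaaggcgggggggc

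The MT2A stretch (chr16:56608334-56608583, plus strand) held 7 matches, 5 on the strand of the gene and 2 on the other. The MT1X stretch (chr16:56682220-56682469, plus strand) held 4, of which 1 was on the other strand. The SLC30A1 stretch (chr1:211579162-211579411, minus strand) held 1, on the other strand, at position -49 from the start. Of 35116 promoters of the same length in the table, 24.8% held at least 1 match, 0.370% at least 4 and 0.0313% at least 7. SLC30A1 thus had a count that many promoters reach, and MT2A and MT1X had counts that few reach. No match was found in the MTF1 promoter or in either entry of SLC39A10. A match is a run of letters and not a shown binding site.

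**Figure D1:**
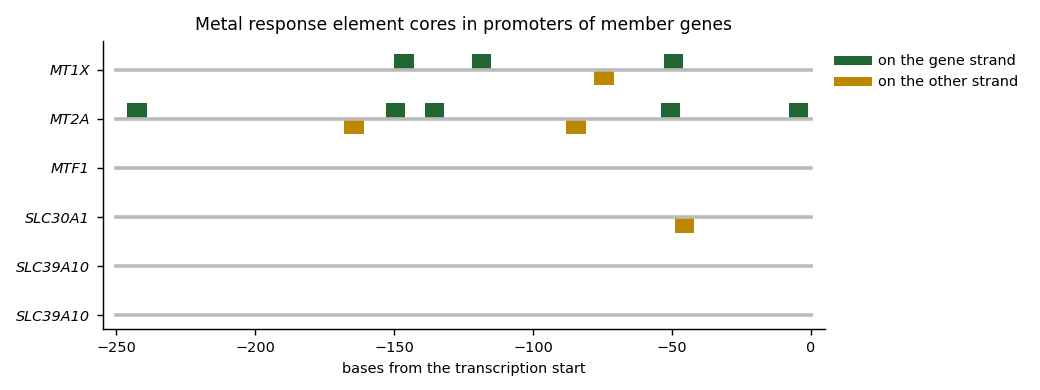
Positions of metal response element cores in the 250 bases before the transcription start of the 5 member genes with a promoter entry (x axis, bases from the start; 1 line per entry, with 2 entries for SLC39A10). Green bars are matches on the strand of the gene and ochre bars those on the other strand. MT2A holds 7, MT1X 4, SLC30A1 1 and the others 0.

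The metallothioneins were near the limit of detection in non-senescent cells and clearly present in senescent cells. Values are normalised read counts, that is, reads divided by a size factor per library, with 0.449 to 1.51 normalised reads for 1 read. Over the 5 metallothioneins together, non-senescent libraries held 5 to 12 reads each and senescent libraries 92 to 257. As a share of all reads this was 0.676 to 2.57 ppm in non-senescent and 13.0 to 21.9 ppm in senescent libraries. The summed level was 9.32 ± 5.11 (SD, n = 6) normalised reads in non-senescent and 129 ± 26.1 (SD, n = 6) in senescent libraries, and the groups did not overlap. The pooled ratio was 15.3 (95% exact interval 11.5 to 20.8, counting error only). It was also separated within each batch: 4.77 and 5.56 against 115 and 133 in batch A, and 6.88 to 17.5 against 96.6 to 165 in batch B.

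MT1F had 0 to 3.73 normalised reads in non-senescent libraries, with a median of 2.08. In senescent libraries it had 32.0 to 64.2, with a median of 49.9. Every senescent library lay above every non-senescent one, in both batches. On a log2(value + 1) scale, where the change of such low genes is understated, MT1F changed by 4.23 ± 0.38 (SE). Its values were 4.45 ± 0.67 in batch A and 4.12 ± 0.47 for batch B. This rests on 12 reads in the 6 non-senescent libraries together, against 371 in the senescent ones. The pooled ratio of 25.0 has a 95% exact interval of 14.1 to 48.9, which leaves out the spread between libraries.

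MT1X had 0.556 to 10.2 normalised reads in non-senescent libraries, with a median of 4.05, and 27.3 to 59.8 in senescent libraries, with a median of 45.6. The groups did not overlap, and the highest non-senescent library was B3. For MT1X the log2 fold change was 3.37 ± 0.38 (SE), made up of 3.79 ± 0.67 for batch A and 3.16 ± 0.47 for batch B. MT2A, the most broadly expressed metallothionein of most tissues, had 0 to 6.02 normalised reads in non-senescent libraries, with a median of 2.57. It had 18.3 to 41.1 in senescent libraries, with a median of 32.0, again without overlap. MT2A had a fold change of 3.20 ± 0.40 (SE) on the log2 scale, made up of 3.94 ± 0.66 for batch A and 2.83 ± 0.47 for batch B.

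MT1G and MT1E were at a few reads. MT1G had 0 reads in all 6 non-senescent libraries. It had 20 reads in the senescent libraries, present in 5 of 6 with 2 to 7 reads, and 0 in senescent B2. Taking 0 reads to allow up to 3 over the whole non-senescent group, the MT1G level was at least 5.39-fold higher in senescent cells, a bound that leaves out the counting error of the 20 reads. An exact 95% interval that covers it has its lower end at 3.99. MT1E had 1 read in non-senescent and 10 in senescent libraries, a pooled ratio of 8.09 with a 95% exact interval of 1.15 to 351. The intervals of MT1G and MT1E cover counting error only and leave out the spread between libraries. Of the 6 senescent libraries, 2 had no MT1E read. The groups of MT1E and of MT1G overlapped.

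The 5 metallothionein members lie in a cluster on chromosome 16 (GENCODE v44, GRCh38), in the order MT2A (chr16:56608584-56609497), MT1E (chr16:56625475-56627112), MT1F (chr16:56657731-56660698), MT1G (chr16:56666730-56668065, minus strand) and MT1X (chr16:56682470-56684196). The other genes of the cluster stayed at or near 0. MT4, MT1M, MT1A and the pseudogenes MT1DP and MT1CP had 0 reads in all 12 libraries, and MT3, the neuronal family member, had 4 reads in each group. The members lie interspersed with genes with few or no reads, as the plot along the cluster shows. They were chosen on these values, so this contrast is not read as a result about the cluster. Genes on either side of the cluster were measured for comparison. Of 6 tested, 0 were called higher or lower by limma (adjusted p under 0.1 and fold over 1.5), with 1 higher and 2 lower at an unadjusted p under 0.05, which all passed the adjusted p limit and missed the fold limit. DESeq2 called 0 of 8, and edgeR called 1 lower, NUDT21, a 3′ end processing factor, whose log2 fold change in limma was -0.58 ± 0.11 (SE).

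**Figure D2:**
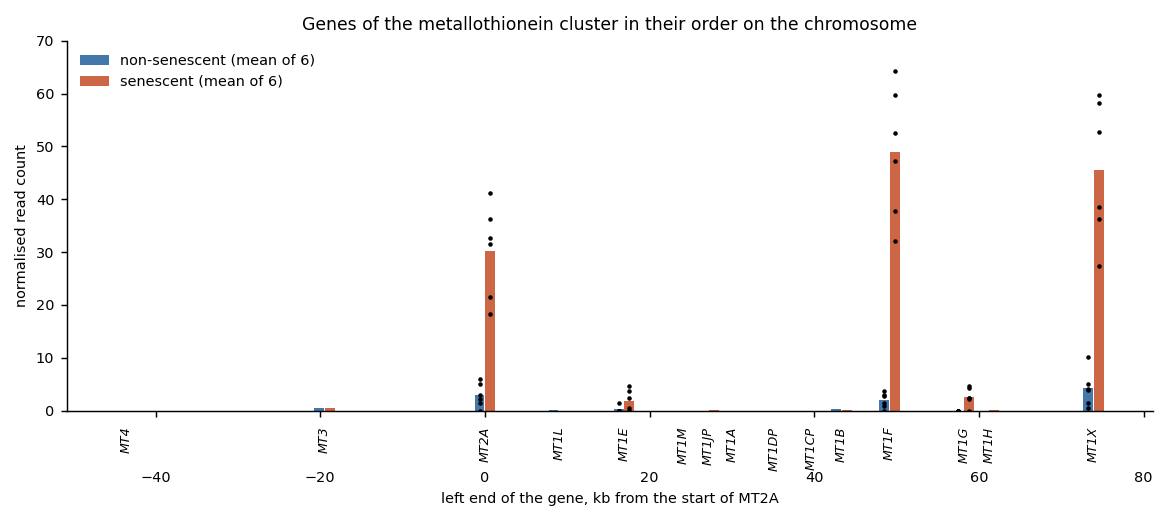
Mean normalised read count of each gene of the metallothionein cluster (y axis) at its distance in kb from the start of MT2A (x axis), in non-senescent (blue) and senescent (orange) libraries. Black points are the 6 libraries of each group, drawn for MT2A, MT1E, MT1F, MT1G and MT1X. The means of MT1F rise from 1.93 to 48.9, those of MT1X from 4.23 to 45.5 and those of MT2A from 2.92 to 30.2.

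Reads of these genes can be mistaken for each other, since the paralogs are alike. In the reference transcripts, 13.9% (MT1F) to 31.1% (MT1G) of the runs of 31 bases of a member also occurred in another metallothionein gene. In the last 200 bases, the end that 3′ reads come from, the share was 0% for MT1X, 1.18% for MT1F, 11.8% for MT2A, 18.2% for MT1E. MT1G shared 34 of 170 runs there. MT1X and MT1F were thus the most separable, and the few MT1E and MT1G reads the least.

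In senescent cells, the share of MT1F in the family was higher in both libraries of batch A than in those of batch B. MT1F took 45.5% and 45.0% of the metallothionein reads in the libraries of batch A. It took 28.6% to 39.1% in those of batch B. Pooled, the shares were 45.3% (95% Wilson interval 40.9 to 49.8) and 34.5% (30.3 to 39.0), counting error only. These intervals leave out the spread between libraries. The intervals of senescent B1 (31.2 to 47.4) and senescent B2 (29.8 to 49.3) reached the batch A shares, so a difference between batches was not shown. In non-senescent cells the share was 24.5% of 49 reads (14.6 to 38.1), too few to compare by batch.

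SLC30A1 (chr1:211571568-211579161), the zinc exporter of the plasma membrane, had 21.1 to 42.2 normalised reads in non-senescent libraries, with a median of 25.7. It had 192 to 470 in senescent libraries, with a median of 376, without overlap. The senescent libraries fell apart by batch, at 201 and 192 in batch A and at 470, 416, 336 and 455 in batch B, whereas the non-senescent ones did not (25.0 and 30.2, against 21.1 to 42.2). SLC30A1 changed by 3.53 ± 0.21 (SE) on the log2 scale, by 2.79 ± 0.28 for batch A and 3.90 ± 0.20 for batch B. The difference between batches was 1.11 ± 0.35 (SE) on the log2 scale, from 0.98 to 1.32 over the alternatives. It was not called in the main fit. It is a description only, because the choice of members had read the responses within batches.

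SLC39A14 (ZIP14, on chromosome 8), an importer of zinc and non-transferrin iron, rose more moderately. In batch A it had 297 and 297 normalised reads in non-senescent and 527 and 485 in senescent libraries. In batch B it had 126, 129, 126 and 118 in non-senescent and 199, 213, 222 and 239 in senescent libraries. The groups were separated within each batch, and overlapped over all libraries because batch A was higher throughout. On the log2 scale SLC39A14 changed by 0.79 ± 0.09 (SE), by 0.76 ± 0.14 for batch A and 0.80 ± 0.10 for batch B.

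SLC39A10 (ZIP10; chr2:195575977-195737702), an importer of the plasma membrane, ranged from 229 to 342 normalised reads in non-senescent libraries and from 230 to 411 in senescent libraries, with medians of 268 and 331. The groups overlapped. Its log2 fold change was 0.27 ± 0.10 (SE). MTF1 itself (chr1:37809574-37859592) ranged from 50.1 to 171 in non-senescent and from 50.1 to 201 in senescent libraries, with overlapping groups in both batches. MTF1 had a log2 fold change of 0.35 ± 0.17 (SE), made up of 0.14 ± 0.29 for batch A and 0.46 ± 0.20 for batch B.

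SLC30A8 (on chromosome 8), the transporter of the insulin granule, had 4262 and 4555 normalised reads in non-senescent and 2723 and 2957 in senescent libraries of batch A. In batch B it had 2348, 2667, 2808 and 2705 in non-senescent and 2905, 2560, 2809 and 2831 in senescent libraries. The batch A groups were separated, with the senescent libraries lower, and the batch B groups overlapped. SLC30A8 had log2 fold changes of -0.63 ± 0.10 (SE) for batch A and 0.08 ± 0.07 for batch B. Their difference was 0.71 ± 0.12 (SE). It is a description only, because the choice of members had read the responses within batches. The same non-senescent libraries of batch A entered a further comparison, in which SLC30A8 was lower in non-senescent batch B than in batch A, by a log2 difference of -0.75 ± 0.09 (SE, limma, adjusted p = 2.64e-06). SST and GCG had batch differences of the same sign in the senescence response. These were 0.89 ± 0.12 (SE, limma, batch by group interaction, adjusted p = 0.000747) and 1.59 ± 0.13 (adjusted p = 6.81e-06). The falls of SST and GCG in batch A were -1.24 and -2.36 on the log2 scale, and their part in the SLC30A8 values was not tested.

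**Figure D3:**
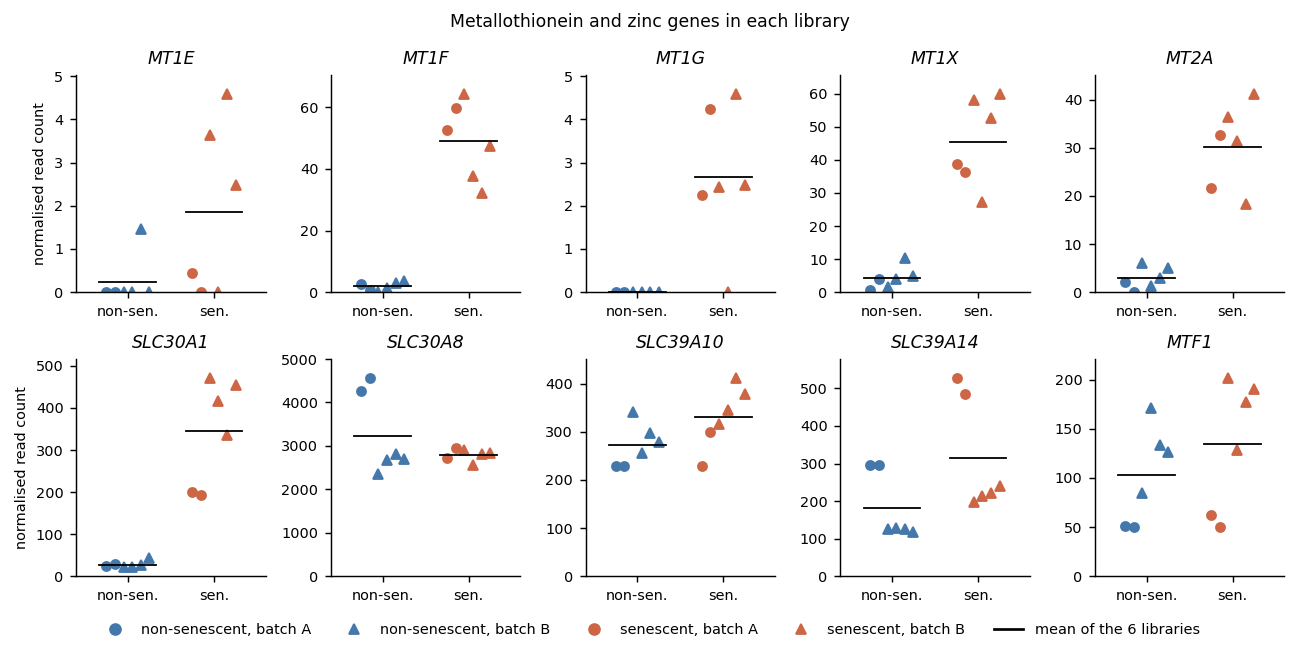
Normalised read count (y axes, from 0, with a scale of their own in each panel) of the 10 genes in the 12 libraries, non-senescent in blue and senescent in orange, with circles for batch A and triangles for batch B. Black lines are means of 6 libraries. Groups are apart for MT1F, MT1X, MT2A and SLC30A1, apart within each batch for SLC39A14, and overlap for the others.

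The filter at a mean of 5 normalised reads left 8 members and removed MT1E and MT1G. Of the 8, 5 were called higher in senescent cells (adjusted p under 0.1 and fold over 1.5): MT1F, MT1X, MT2A, SLC30A1 and SLC39A14. Of all 13847 genes tested, 11.6% were called higher and 11.8% lower. The members were chosen on this contrast, so nothing is read from their count. Of the same 8, 4 had groups that did not overlap over all libraries, 5 in batch B and 7 in batch A. Over every gene tested, the groups did not overlap for 10.2% over all libraries, for 67.8% in batch A with its 2 libraries per group and for 31.3% in batch B. The median log2 fold change was 0.01 over all genes tested. That of the 8 members, 1.99, follows from how they were chosen and is not read as a result. MT1F, MT1X and MT2A had means of 1.93, 4.23 and 2.92 in non-senescent libraries and passed the filter only through their senescent libraries.

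Besides the average response, the difference of the response between batches and the difference of batches in non-senescent cells were measured. The first was built from the responses within batches, which the choice of members had read. Its count over the members is therefore a description only. The second compared batches and not groups. The response differed between batches for 1 of the 8 members, SLC30A8, and for 4.21% of all genes tested. The standard error of this difference was 0.82 for MT1F, 0.82 for MT1X and 0.81 for MT2A, against 0.12 for SLC30A8. The 3 metallothioneins could thus hardly have been called. MT1F, MT1X and MT2A averaged under 5 normalised reads in non-senescent libraries and are left out of the batch comparison there. Of the other 5 tested members, 3 differed between batches (limma, adjusted p under 0.1 and fold over 1.5). Among all genes with a mean of at least 5 in these libraries 50.2% did, and among all genes tested 49.8%. MTF1 was higher in batch B by 1.29 ± 0.25 (SE, log2, adjusted p = 0.000398). SLC39A14 was lower in batch B by a log2 difference of -1.25 ± 0.12 (adjusted p = 4.13e-07), and SLC30A8 was lower as given above. SLC30A1 did not pass, at -0.03 ± 0.25 (adjusted p = 0.916).

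The other members of both zinc transporter families were tested with all genes. Of 6 other SLC30A exporters, limma called 1 higher, SLC30A9, which is linked to zinc export from mitochondria, at 0.60 ± 0.11 on the log2 scale (SE, adjusted p = 0.000302). This value lies at the fold limit, and 6 of 24 alternatives put it under the limit or threshold, among them leaving out non-senescent A1 (0.53), non-senescent B2 (0.58) or senescent A1 (0.53). None of the 6 was called lower, by limma, edgeR or DESeq2, and none had an unadjusted p under 0.05 in that direction. Of 9 other SLC39A importers, limma called 1, SLC39A8, which was lower, and edgeR and DESeq2 called the same number. SLC39A13 was higher (0.48 ± 0.13, limma, adjusted p = 0.00651) and SLC39A4 lower (-0.44 ± 0.13, adjusted p = 0.0130), and both missed only the fold limit. SLC39A4 had 0.03 ± 0.18 for batch A and -0.68 ± 0.12 for batch B. The exporter SLC30A4 was higher and also missed only the fold limit (0.33 ± 0.13, limma, adjusted p = 0.0517). SLC39A8 (ZIP8; chr4:102251080-102431258) imports zinc, iron and manganese and is the closest relative of SLC39A14.

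SLC39A8 moved the opposite way from SLC39A14. It had 33.6 to 100 normalised reads in non-senescent libraries, with a median of 43.0, and 6.06 to 17.1 in senescent libraries, with a median of 10.7. The groups did not overlap. Its log2 fold change was -2.15 ± 0.24 (SE, limma, adjusted p = 1.61e-06), made up of -2.60 ± 0.39 for batch A and -1.93 ± 0.28 for batch B. SLC30A2, SLC30A10, SLC39A2, SLC39A5 and SLC39A12 had too few reads to be tested, with at most 7 in any library.

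**Figure D4:**
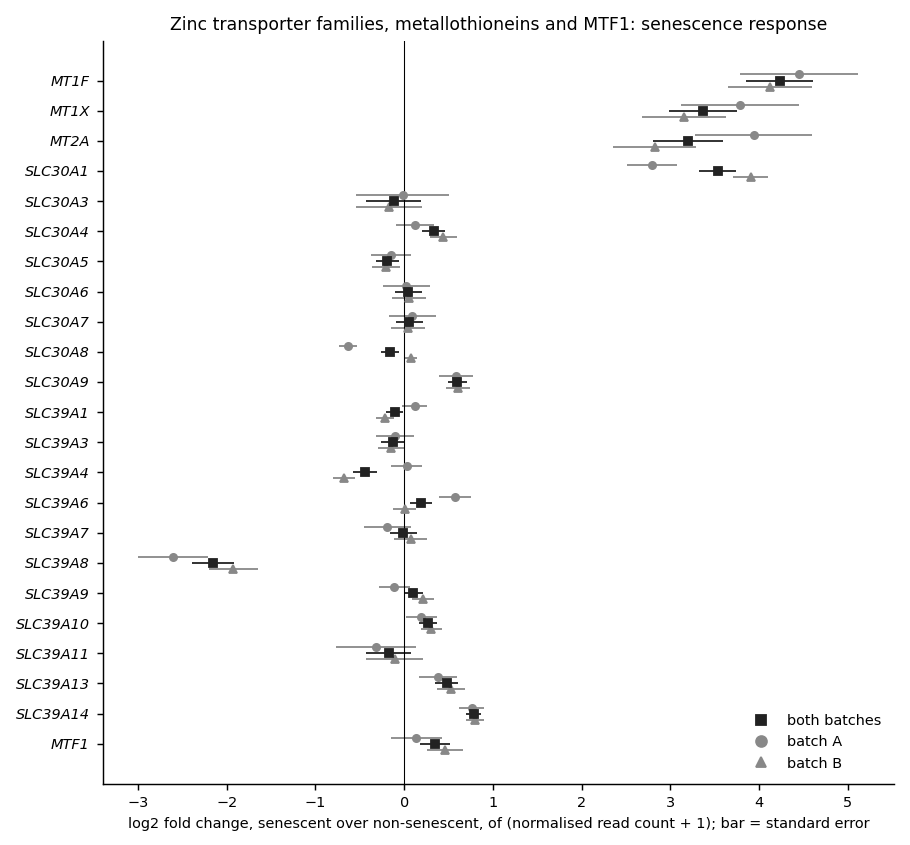
Log2 fold change of senescent over non-senescent cells, on the log2(normalised read count + 1) scale (x axis), for the tested metallothioneins, SLC30A and SLC39A transporters and MTF1 (y axis). Black squares are both batches, grey circles batch A, grey triangles batch B, and bars are standard errors. The metallothioneins and SLC30A1 lie from 3.20 to 4.23, SLC39A8 lies at -2.15, and the others are within 0.79 of 0.

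SLC30A8 and insulin did not move in parallel. INS had 34331 and 26863 normalised reads in non-senescent and 167961 and 185508 in senescent libraries of batch A, and 11021 to 16123 against 49685 to 67918 in batch B. INS changed by 2.23 ± 0.11 on the log2 scale (SE, limma, adjusted p = 1.26e-10). Per 1000 INS reads, SLC30A8 had 124 and 170 reads in non-senescent and 16.2 and 15.9 in senescent libraries of batch A. In batch B the figures were 146 to 255 and 41.6 to 58.5. The ratio was thus lower in every senescent library than in every non-senescent one. INS is its denominator, so the rise of INS alone lowers it, and it adds little on SLC30A8 itself.

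**Figure D5:**
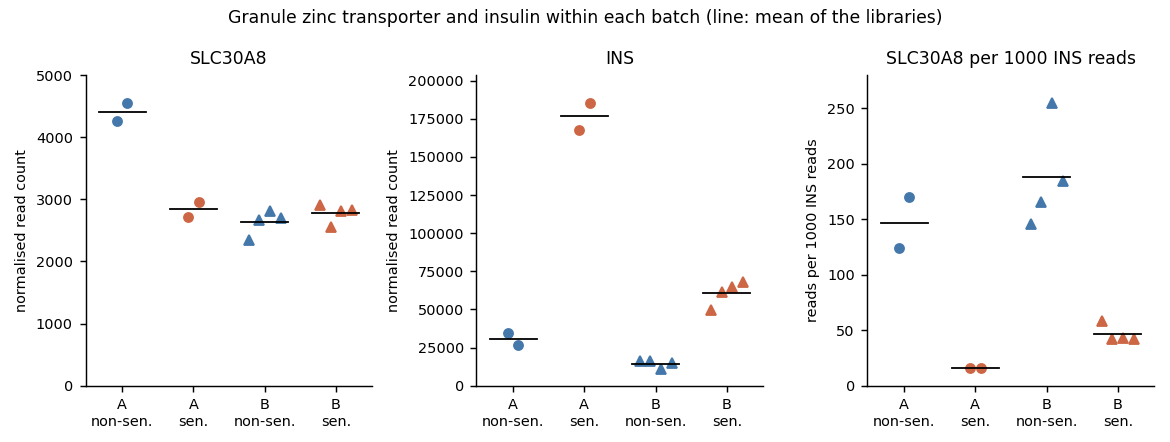
SLC30A8 and INS in normalised read counts, and SLC30A8 reads per 1000 INS reads (y axes, from 0), in the 2 libraries per group of batch A (circles) and the 4 per group of batch B (triangles), non-senescent in blue and senescent in orange. Black lines are means. SLC30A8 is high in non-senescent batch A only, INS is high in all senescent libraries, and the ratio is 124 to 255 in non-senescent and 15.9 to 58.5 in senescent libraries.

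Most other genes of the list for the granule were higher. Of 10 tested, limma called 7 higher and 1 lower. Higher were INS, IAPP (amylin), CPE (which trims prohormones), CHGB (a granin), PTPRN and PTPRN2 (granule membrane proteins) and G6PC2. Their log2 fold changes were from 0.62 to 2.23. G6PC2 is a beta cell enzyme of the endoplasmic reticulum that frees glucose from its phosphate. It was counted in the list although it is not a granule protein. PCSK1, a prohormone convertase, was lower, at -1.06 ± 0.12 (SE, limma, adjusted p = 3.47e-06). The responses of CPE and PCSK1 differed between batches. CPE had 0.27 ± 0.11, under the fold limit, for batch A and 1.02 ± 0.08 for batch B, a difference of 0.75 ± 0.14 (SE, limma, adjusted p = 0.00797). PCSK1 had -1.55 ± 0.15 and -0.81 ± 0.11, a difference of 0.74 ± 0.19 (adjusted p = 0.0533) that missed the threshold without any of the 4 batch A libraries (0.62 to 0.87 without 1 of them). PTPRN2 had 0.34 ± 0.13 for batch A and 0.76 ± 0.09 for batch B, and lost its call in 4 of 24 alternatives, among them leaving out non-senescent B2 (0.57) or senescent B1 (0.58).

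Genes of other metals were compared, because several zinc transporters also carry iron and metallothioneins bind copper. Of 15 iron genes tested, limma called 5 higher, with log2 fold changes from 0.63 to 1.56. These were the ferritin light chain FTL, the iron exporter SLC40A1 (ferroportin), the iron importer SLC11A2 (DMT1), the iron regulatory protein ACO1 and the ferritin receptor NCOA4. SLC40A1 changed by 1.56 ± 0.24 (SE, limma, adjusted p = 5.55e-05), with 0.80 ± 0.35 for batch A and 1.95 ± 0.25 for batch B, a difference that missed the threshold (adjusted p = 0.198). FTL changed by 0.89 ± 0.08 (adjusted p = 6.49e-08). NCOA4 lost its call in 3 of 24 alternatives, among them leaving out non-senescent A2 (0.56). None of the 15 was called lower by limma, although PCBP1, PCBP2, TFRC and FTH1 were lower at an adjusted p under 0.1 and missed only the fold limit (these 4 were also those at an unadjusted p under 0.05), whereas edgeR and DESeq2 each called 1 lower, the copper-containing ferroxidase CP. The ferritin heavy chain FTH1 was at -0.18 ± 0.06. The median over the 15 iron genes was -0.01, close to the 0.01 over all genes. Of 13 copper genes, limma called 2 higher: CCS, the copper chaperone of superoxide dismutase, at 0.62 ± 0.11 (adjusted p = 0.000272; under the fold limit in 3 of 24 alternatives, among them 0.54 without non-senescent B3), and the metalloreductase STEAP2 at 0.98 ± 0.19 (adjusted p = 0.000659). None was called lower by limma, edgeR or DESeq2, with 1, CUTA, lower at an unadjusted p under 0.05, which also passed the adjusted p limit and missed the fold limit.

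Metallothionein genes are also known to respond to oxidative stress and glucocorticoids, and lists for both were tested. Of 7 targets of NRF2, the main oxidative stress factor, limma called 2 lower: TXNRD1 (thioredoxin reductase) at -0.72 ± 0.12 (SE, adjusted p = 0.000102) and the cystine transporter SLC7A11 at -0.94 ± 0.24 (adjusted p = 0.00490). SRXN1 (-0.50 ± 0.12, limma, adjusted p = 0.00366) and GCLM (-0.33 ± 0.09, adjusted p = 0.00533) were also lower and missed only the fold limit. None of the NRF2 targets was called higher by limma, edgeR or DESeq2, with 1 higher at an unadjusted p under 0.05. Of 5 glucocorticoid-responsive genes, limma called 2 higher, TSC22D3 (GILZ) at 0.98 ± 0.22 (adjusted p = 0.00169) and the clock gene PER1 at 0.60 ± 0.21 (adjusted p = 0.0301). None was called lower by limma, edgeR or DESeq2. FKBP5 was lower (-0.50 ± 0.16, limma, adjusted p = 0.0174) and missed only the fold limit. The TSC22D3 response was 1.79 ± 0.29 for batch A and 0.57 ± 0.21 for batch B. Their difference passed the test (limma, adjusted p = 0.0942), but passed in only 10 of 21 alternatives and missed the threshold in 11. DUSP1, a phosphatase of the list, was not called (0.45 ± 0.25, limma, adjusted p = 0.172) and was called higher by edgeR. Its responses of 1.68 ± 0.25 for batch A and -0.16 ± 0.18 for batch B differed by -1.83 ± 0.30 (limma, adjusted p = 0.00426). PER1 lost its call under 9 of 24 alternatives, among them leaving out non-senescent A1 (0.55) or B4 (0.50), or senescent A2 (0.56), B3 (0.56) or B4 (0.48).

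Within groups and batches, the library-to-library pattern of the summed metallothionein level was most like those of EXOC2, ABCF1, NEK1, GOLT1A and HS2ST1, with Pearson correlations of 0.93 to 0.96. These were taken over the 12 libraries after centring log2 values in each group and batch, among 11680 genes whose mean reached 20 normalised reads. The values of a library share its depth and preparation, and the ranking is a description with no test. In non-senescent libraries the sum rested on 5 to 12 reads each. Its main genes did not share a pattern: correlations were 0.38 for MT1F with MT1X, 0.23 for MT1F with MT2A and -0.52 for MT1X with MT2A.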

How the data were processed

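RNA of 12 EndoC-βH3 samples (6 senescent, 6 non-senescent) was profiled by CEL-seq2. Groups, replicate names and the batch letter (A or B) came from the sample labels. According to the methods and the submitters' processing notes, Cutadapt trimmed the reads, Salmon 0.13.1 quantified them on GRCh38, and DESeq2 normalised the result. The annotation and the use of molecular identifiers are not given in the sources used here, so intervals and floors cover counting error only. Per gene and library the authors deposited a signal, reads divided by a size factor per library, called normalised read counts here. Salmon divides reads among similar transcripts, so values of single metallothioneins are uncertain. The table also holds columns of the authors' own DESeq2 comparison (mean, fold change, its error, statistic, p-values), which were not used.

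All of 196021 non-zero values were whole multiples of the smallest value of their column (tolerance 0.001), so whole reads were recovered. A count of 0 over a group was taken to allow up to 3 reads in that group. The main test was limma 3.58.1 (R 4.3.3, trend, batch and group as terms) on log2(value + 1) for 13847 genes with a mean of at least 5, with Benjamini-Hochberg adjustment over all of them. Calls needed a fold over 1.5 with an adjusted p under 0.1, and for the interaction of batch and group the adjusted p alone. On the recovered reads, edgeR 4.0.16 (quasi-likelihood) called 1561 higher and 1677 lower genes, where limma called 1605 and 1632. DESeq2 1.42.0 was run as well. Other settings of pseudocount, filter, scaling and batch term, a replicate block and leaving out each library served as alternatives. Simulated data with known changes were used to test the procedure. Libraries of a group and batch differed beyond sampling noise (chi-square per degree of freedom from 4.28 to 8.05 over 14 pairs).

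The 10 members, the gene lists and the tests were chosen with earlier results of these data known. Named genes were all members, the genes of the lists that limma called, genes of the lists with few reads, and the 5 genes most like the summed metallothionein level. FTH1, PCBP1, PCBP2, TFRC, CP, CUTA, NUDT21, FKBP5 and DUSP1 were named after their values were seen. Positions came from GENCODE v44 and promoters from RefSeq (GRCh38.p14), matched by symbol.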

Additional observations from a re-analysis of the deposited data

Results flagged for a closer look

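The senescence response of SLC30A8, the zinc transporter of the insulin granule, differed between the batches by 0.71 ± 0.12 (SE, log2, batch B minus batch A). This is a description only, because the choice of members had read the responses within batches. Non-senescent libraries of batch A stood above all others, at 4262 and 4555 normalised reads, where the other 10 libraries had 2348 to 2957. Over the 21 alternatives the difference was from 0.65 to 0.77. Batch A has 2 libraries per group, and what set them apart was not tested. Among the 10 genes and the metallothionein sum, no library was far enough from the other 5 of its group to be set aside as an outlier. This rule took both batches of a group together, so where batches differed it could hardly flag a library within a batch. The responses of other named genes outside the zinc group also differed between batches by the limma test of the batch by group interaction (log2, batch B minus batch A). The differences were 0.75 for CPE, 0.74 for PCSK1, -1.22 for TSC22D3, -1.83 for DUSP1, 1.59 for GCG, 0.89 for SST and -0.72 for NKX6-1. That of TSC22D3 passed in only 10 of 21 alternatives, and that of PCSK1 in 17.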

How the results depend on the processing

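The 5 members called higher numbered 4 to 6 over 24 alternatives. The filter at a mean of 20 gave 4, because it removed MT2A, and so did the model without a batch term. No filter and DESeq2 gave 6. The log2 fold change of each of MT1F, MT1X, MT2A, SLC30A1 and SLC39A14 stayed above 0 under every alternative, from 3.16 to 4.64, 2.64 to 3.79, 2.33 to 3.94, 2.79 to 3.90 and 0.68 to 0.81. SLC30A8 ranged from -0.63 (batch A alone) to 0.08 (batch B alone). Of all genes, 3237 were called, and 2143 without the batch term. The interaction was called for 583 genes, for 1026 by DESeq2, and for 169 to 743 with 1 library left out, down to 262, 175, 178 and 169 without non-senescent A1, non-senescent A2, senescent A1 and senescent A2. Where a library of batch A is left out, the lone sample of its group is assumed to vary like the other groups. With equal library totals, 1225 genes were higher and 2092 lower (36.9% higher, against 49.6%). With the replicate block 3211 genes were called. Replicate numbers did not pair the samples (correlations of same-numbered samples from -0.05 to 0.02). MT1F, MT1X and MT2A had 0 to 7 reads in each non-senescent library, so a change of few reads there moves their fold changes: with a pseudocount of 4, MT1F was at 3.16 and MT2A at 2.33.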
